A study of Caenorhabditis elegans with 2 samples.

Results

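The genes described here are 10 regulators of larval timing in the nematode Caenorhabditis elegans: lin-42, lin-46, lin-14, lin-28, lin-29, lin-41, hbl-1, daf-12, blmp-1 and myrf-1. They were chosen by gene symbol, and all 10 were found among the 19973 protein-coding genes annotated on the 6 chromosomes. The data are chromatin immunoprecipitation sequencing (ChIP-seq) peaks of SAEG-2, which works in the nucleus with its partners SAEG-1 and HDA-2, a histone deacetylase, below the cGMP-dependent kinase EGL-4. Whole L4 larvae of strain RW12230 were collected at 48 h after hatchlings had been arrested by L1 starvation. Every animal carries saeg-2::TY1::EGFP::3xFLAG, inserted by CRISPR at the saeg-2 locus, and an anti-GFP antibody was used. There is 1 group of 2 biological replicates, with no second genotype, stage or tissue, and no control precipitation was analysed here.

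Heterochronic genes set the order in which larval cells adopt the fates of successive stages. In the early larva LIN-14, LIN-28 and HBL-1 promote early fates, and microRNAs of the lin-4 and let-7 classes shut them off in turn. Late in larval life LIN-41 declines and LIN-29 drives the switch of the epidermis to its adult form, a step that falls in the L4 stage sampled here. DAF-12 ties this sequence to hormone supply, while LIN-42, BLMP-1 and MYRF-1 belong to the rhythm that repeats with each moult.

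A peak was given to a gene where its summit lay in the annotated gene span or within 2 kb upstream of the outermost 5′ end. Many worm transcripts are trans-spliced, so an annotated 5′ end may lie downstream of the true start of transcription. The authors' conservative list (1145 peaks) and non-conservative list (1307 peaks) rest on both replicates. Replicate 1 alone gave 452 peaks and replicate 2 alone 541. Each list keeps peaks with an irreproducible discovery rate (IDR) of 0.01 or lower, that is a −log10 IDR of at least 2. A low IDR means that a peak ranks consistently high in the peak sets compared. Peak strength is given as the signal value deposited by the authors, whose scale is not stated, so it is compared and ranked within 1 list at a time. The depth of the libraries is unknown.

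Of the 10 timing genes, 6 held a conservative summit: lin-42, lin-46, lin-14, lin-29, daf-12 and myrf-1. Among all protein-coding genes 5.31% did. The non-conservative list added lin-41 and so marked 7 of the 10, against 6.1% of protein-coding genes. The list of replicate 2 marked 4, namely lin-42, lin-14, daf-12 and myrf-1, against a background of 2.61%. In the list of replicate 1, lin-42 alone was marked, against a background of 2.39%, so the count of 6 falls to 1 where replicate 2 is left out. None of the 4 thresholded lists held a summit at lin-28, hbl-1 or blmp-1. These genes were chosen with earlier results of these data known, so their counts are a description and carry no test.

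The count was also set against genes of the same length class. All 4 timing genes that span 10 kb or more, daf-12 (31.0 kb), lin-14 (20.3 kb), lin-42 (19.1 kb) and lin-29 (17.7 kb), held a conservative summit, against 11.2% of the 998 protein-coding genes of that class. The class starts at 10 kb and has no upper bound, while these 4 genes span 17.7 kb or more, so it matches their length only loosely. Of the 4 that span 5 to 10 kb, myrf-1 held one and lin-41, hbl-1 and blmp-1 did not, against 8.68% of such genes. The gene lin-28, in the class of 2 to 5 kb, had none (background 5.81%), and lin-46, under 2 kb, had one (background 3.6%). Per length, the windows of the 10 genes together cover 137.5 kb and held 10 conservative summits, or 72.7 per Mb. Of these summits, 2 belong to overlapping entries at daf-12, which are read as 1 region below. All protein-coding windows, merged, held 11.0 per Mb.

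**Figure D1:**
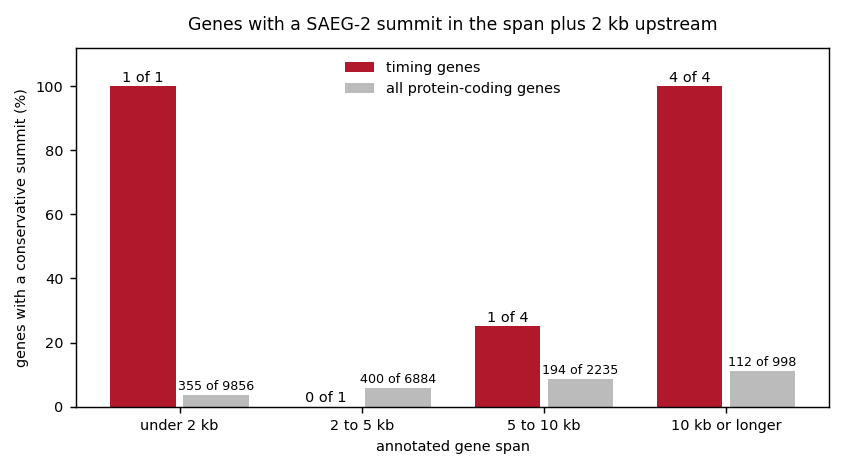
Share of genes with a conservative SAEG-2 summit in the gene span plus 2 kb upstream (vertical axis, %), by annotated gene span (horizontal axis), for the timing genes (red) and all protein-coding genes (grey), with the counts above each bar. The grey bars rise from 3.6% to 11.2% with length, and 4 of 4 timing genes of 10 kb or longer held a summit.

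The strongest peak of the 10 genes lay in lin-42, the worm relative of the clock gene Period (WBGene00018572, chrII:1233236-1252359, minus strand). It spanned chrII:1246859-1247162 (ce11, the same sequence as WBcel235) with a signal value of 161.3, rank 153 of 1145. The summit sat in the first intron of the long transcripts, 5348 bp downstream of their 5′ end and 2976 bp upstream of the 5′ end of transcripts b and c. It lies where 2 short noncoding RNA genes on opposite strands, F47F6.13 and F47F6.15, overlap. This was the 1 conservative peak of the timing genes that was also thresholded in both replicates, with a signal value of 77.5 in replicate 1 and 88.8 in replicate 2. A weaker peak at chrII:1244477-1244780 (79.9, rank 894) lay in the same intron, 594 bp upstream of the 5′ end of transcripts b and c. It was thresholded in neither replicate, its overlapping peaks ranking 1005 of 43050 in replicate 1 and 2836 of 50310 in replicate 2. Replicate 2 alone listed a pair of overlapping peaks in a coding exon, 331 and 127 bp downstream of the 5′ end of transcript e, with signal values of 37.5 and 12.3. Transcript use was not measured, so which isoform a peak belongs to was not tested.

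Next came myrf-1, which encodes a membrane-released transcription factor needed for moulting and for lin-4 expression (WBGene00004134, chrII:10496987-10502541, minus strand). Its peak at chrII:10502730-10503033 had a signal value of 143.0, rank 204. The summit lay 341 bp upstream of the annotated 5′ end and inside the noncoding RNA gene F59B10.7, and no coding gene had a nearer 5′ end. The replicates ranked it unequally: in replicate 2 it was thresholded with a signal value of 97.8, rank 130 of 50310, and in replicate 1 it had 42, rank 960 of 43050, with a −log10 IDR of 1.93, just under the threshold.

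The sequences at these strongest peaks are shown because they share a long word. The bases are those of the RefSeq copy of WBcel235, 121 bp centred on each summit and written on the strand of the gene. Capitals mark a 12-base word, which lin-42 holds as the reverse complement of the form in myrf-1.
lin-42, chrII:1246951-1247071, minus strand: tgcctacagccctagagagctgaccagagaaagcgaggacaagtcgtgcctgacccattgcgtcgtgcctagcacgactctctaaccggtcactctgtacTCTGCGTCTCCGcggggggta
myrf-1, chrII:10502822-10502942, minus strand: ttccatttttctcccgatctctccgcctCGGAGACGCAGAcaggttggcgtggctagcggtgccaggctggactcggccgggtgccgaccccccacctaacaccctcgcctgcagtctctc

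The word CGGAGACGCAGA came out of a comparison of all 36 pairs of the 9 regions over 201 bp each, done after the bases had been seen, and is thus no tested motif. It occurred on either strand within 100 bp of the summit in 6 of 1145 conservative peaks (0.524%), and in 2 of 2290 stretches of the same length centred 400 bp to either side (0.0873%). The 6 include the lin-42 and myrf-1 peaks from which the word was taken, and these also count for its parts. The 5 stretches of 8 bases in this word differed in how often they stood at summits. From the 5′ end, CGGAGACG stood in 16 peaks (1.4%), GGAGACGC in 43 (3.76%), GAGACGCA in 115 (10%), AGACGCAG in 124 (10.8%) and GACGCAGA in 105 (9.17%). In the flanking stretches these shares were 0.306%, 0.437%, 1.05%, 1.22% and 1.05% in the same order. The base composition of the flanking stretches was not measured, and its part in these shares was not tested. A second word of 12 bases, GCGAGAGGGGAG, was shared by the lin-42 and daf-12 peaks and stood in these 2 conservative peaks and 1 flanking stretch. Its 5 stretches of 8 bases stood in 0.611% to 1.66% of peaks and in 0.131% to 0.48% of flanking stretches. Such a match describes letters and does not show a site bound by SAEG-2.

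The hormone receptor gene daf-12 (WBGene00000908, chrX:10635908-10666875, plus strand) held the third strongest region. Its peak at chrX:10637330-10637633 had a signal value of 119.6, rank 324, with the summit in the first intron, 1574 bp downstream of the outermost 5′ end. The other 8 annotated 5′ ends lie 6927 to 26924 bp further on. A second entry, chrX:10637533-10637836 (28.6, rank 1079), overlaps the first. Both entries carry a −log10 IDR of 3.26 in the list behind the conservative peaks, but in the list behind the non-conservative peaks the second has 0.198, so the region is read here as 1. Replicate 2 thresholded it at 74.6, rank 255 of 50310, while replicate 1 placed it at 48.2, rank 590 of 43050, below its threshold.

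In lin-14 (WBGene00003003, chrX:11465560-11485871, plus strand), whose product holds cells in L1 fates, 3 peaks lay far apart in introns. The strongest (chrX:11472031-11472334, signal value 100.2, rank 528) lay 6623 bp downstream of the outer 5′ end. Another (chrX:11482219-11482522, 91.7, rank 660) lay 2010 bp downstream of the internal 5′ end of transcript b, and the last (chrX:11467294-11467597, 72.4, rank 1006) lay 1886 bp downstream of the outer one, over the noncoding RNA gene T25C12.7. The peak near transcript b was thresholded in replicate 2 (59.5) and not in replicate 1 (36.2). The others were thresholded in neither: the strongest had 38.4 in replicate 1 and 57.7 in replicate 2, and the last 40.6 and 40.4. The order of the 3 peaks thus differs between the replicates, with the outermost first in replicate 1 and last in replicate 2.

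A pair of the lin-14 peaks hold AGTGCA, an element known from DAF-12 target genes, shown in capitals in their sequences. The strongest daf-12 peak holds none within 100 bp of its summit, and the capitals in its sequence mark the word it shares with lin-42. In lin-42 that word lies within 100 bp of the summit but outside the 121 bp shown.
lin-14, chrX:11472123-11472243, plus strand: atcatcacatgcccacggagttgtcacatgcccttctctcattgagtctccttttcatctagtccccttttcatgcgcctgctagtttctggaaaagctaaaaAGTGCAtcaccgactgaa
lin-14, chrX:11482311-11482431, plus strand: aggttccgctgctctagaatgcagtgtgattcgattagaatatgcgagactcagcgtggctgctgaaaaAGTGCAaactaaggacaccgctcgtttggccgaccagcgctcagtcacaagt
daf-12, chrX:10637422-10637542, plus strand: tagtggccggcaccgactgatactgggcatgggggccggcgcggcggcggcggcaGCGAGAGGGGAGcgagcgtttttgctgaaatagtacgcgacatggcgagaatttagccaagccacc

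Within 100 bp of the summit and on either strand, AGTGCA stood in 3 of the 10 timing gene peaks, and in 9.17% of all conservative peaks. The 3 are the pair in lin-14 and the weak second daf-12 entry (signal value 28.6), which is absent from the non-conservative list. TGATAA, the core bound by GATA factors, stood in 1, at lin-46, against 18.3% of all. TTTCNCTTT, a form of the BLMP-1 motif, AGGTCA, bound by nuclear receptors of the NHR-23 kind, and the GA repeat GAGAGAG stood in none, against 4.98%, 6.03% and 12.1% of all conservative peaks. None of the 5 searched words contains another.

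At lin-29 and lin-46 the nearest coding 5′ end belonged to another gene. In lin-29 (WBGene00003015, chrII:11917642-11935343, minus strand), whose zinc finger product triggers adult epidermal fates, the summit lay in the 3′ UTR, near the far end of the gene and 3597 bp downstream of the nearest of its own 5′ ends (chrII:11917689-11917992, signal value 96.1, rank 586). The nearest coding 5′ end belongs to the converging neighbour hmg-12, at 1328 bp. At lin-46 (WBGene00003031, chrV:12968855-12970730, plus strand), which encodes a gephyrin-like scaffold that acts below lin-28, the summit lay 846 bp upstream but 27 bp from the 5′ end of the divergent gene R186.8 (chrV:12967857-12968160, 71.0, rank 1017). Neither peak was thresholded in a replicate. The lin-29 peak had 38.8 in replicate 1 and 53.9 in replicate 2, where its −log10 IDR of 1.94 fell just short, and the lin-46 peak had 37.9 and 38.6. Counting each peak for the gene with the nearest coding 5′ end leaves 4 timing genes, without lin-29 and lin-46.

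**Figure D2:**
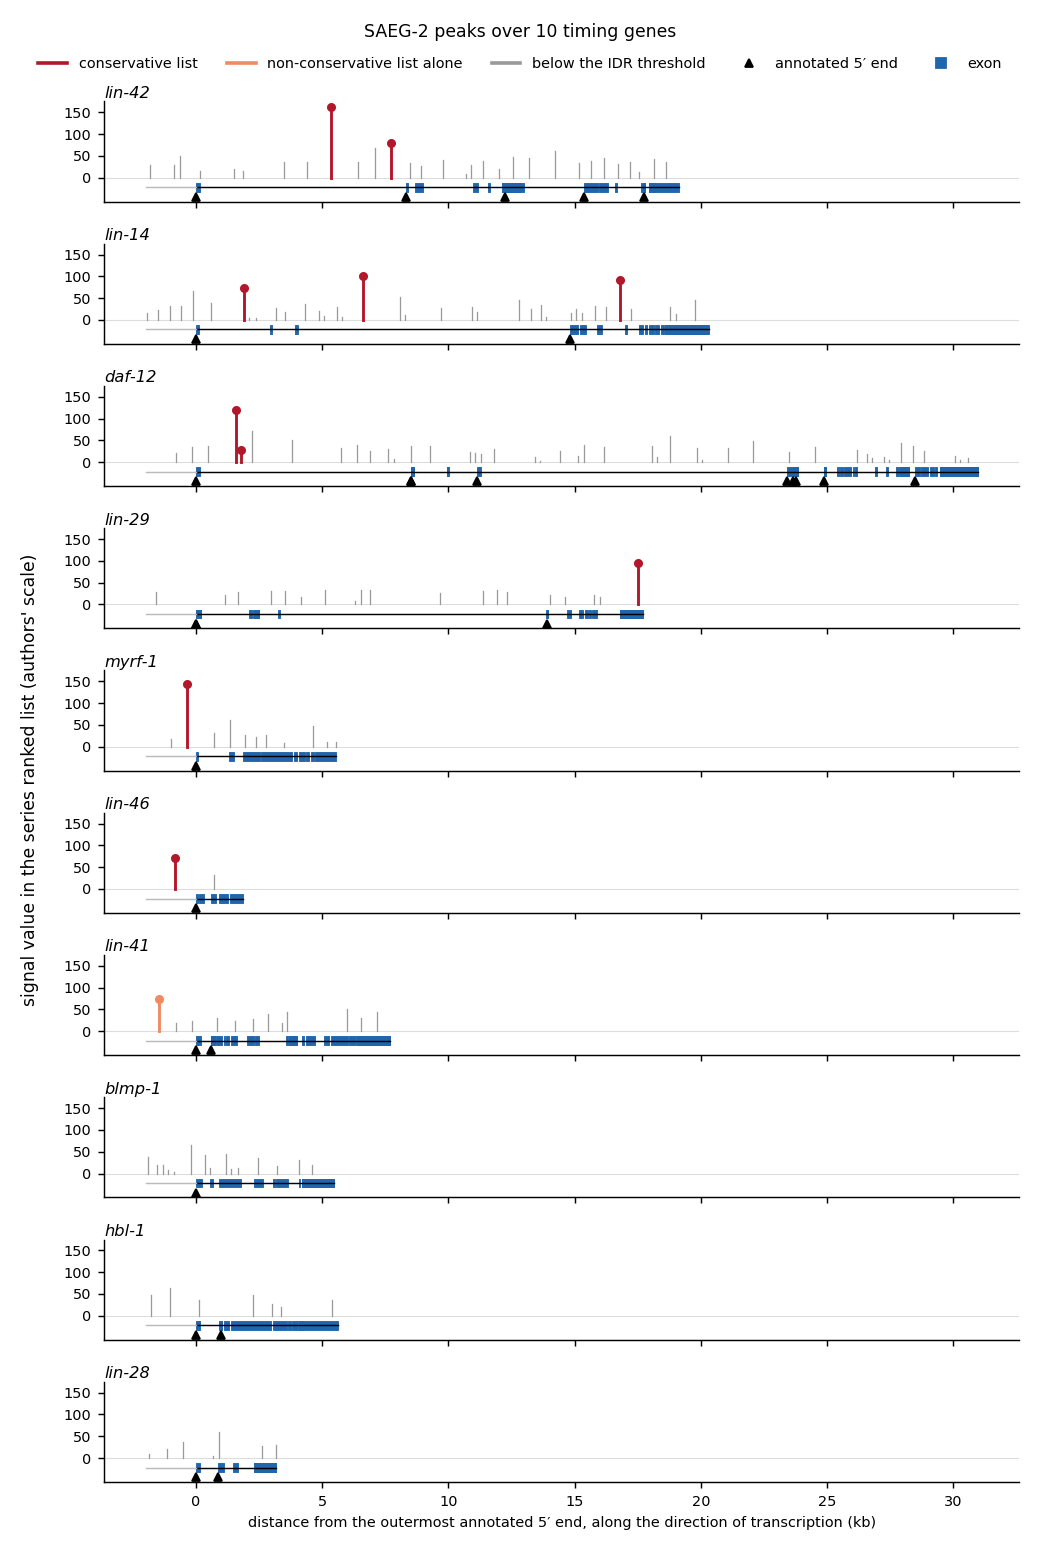
Peaks of the ranked list behind the conservative list over the 10 genes, with the signal value (vertical axis, authors' scale) against the distance from the outermost annotated 5′ end in kb (horizontal axis, transcription to the right, 2 kb upstream included). Red marks conservative peaks, orange the lin-41 peak of the non-conservative list and grey the candidates below the threshold. Blue blocks are exons and triangles annotated 5′ ends. The peaks of lin-42, lin-14 and daf-12 stand in introns, and that of lin-29 at the 3′ end.

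The TRIM-NHL gene lin-41, a target of let-7 (WBGene00003026, 9334800 to 9342496 on chromosome I, minus strand), sat on the threshold. Its peak lay 1456 bp upstream of the gene (9343800 to 9344103) with a signal value of 74.6, above that of the lin-46 peak. Its −log10 IDR was 1.97 in the list behind the conservative peaks and 2.41 in the list behind the non-conservative ones. The 2 replicates placed it at 44.0, rank 825 of 43050, in replicate 1 and 33.9, rank 3796 of 50310, in replicate 2.

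No thresholded peak lay at blmp-1 (WBGene00003847, 10409302 to 10414773 on chromosome I, plus strand), hbl-1 (WBGene00001824, chrX:5822142-5827755, plus strand) or lin-28 (WBGene00003014, 8407630 to 8410804 on chromosome I, minus strand). The best candidate of blmp-1, a zinc finger gene of the Blimp-1 family, lay 214 bp upstream with a signal value of 64.9 and −log10 IDR values of 1.72 and 1.91 in the 2 series lists. That of hbl-1, the relative of fly hunchback, lay 1044 bp upstream with 64.3 (1.23 and 0.636). That of lin-28, which encodes an RNA-binding protein that blocks let-7 maturation, lay at the internal 5′ end, 6 bp downstream of it, with 59.9 (0.757 and 1.41). A candidate as such is common, since 87.9% of protein-coding genes had at least 1 in the ranked list behind the conservative peaks. What these genes lack is a peak past the threshold at this unknown depth, which does not show that SAEG-2 is absent.

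**Figure D3:**
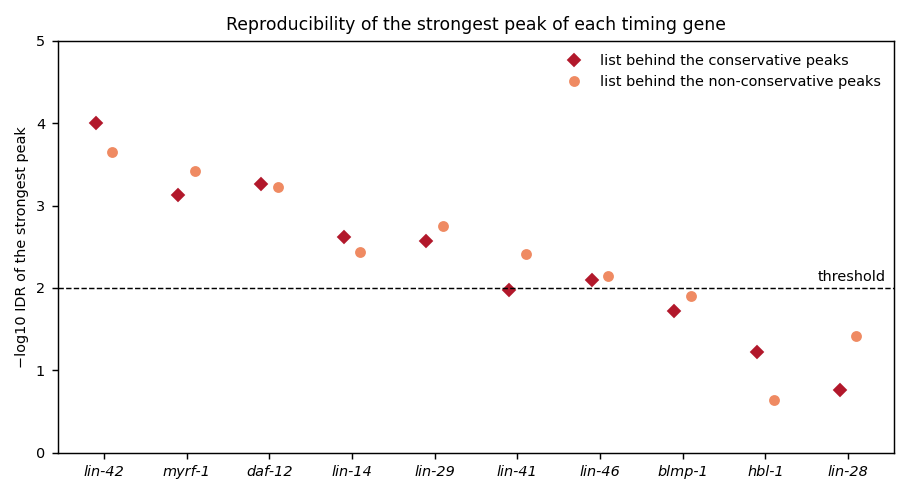
−log10 IDR (vertical axis) of the strongest peak of each gene (horizontal axis, ordered by signal value) in the ranked lists behind the conservative (red) and the non-conservative (orange) peaks, with the threshold of 2 dashed. The gene lin-41 lies on either side of the line, at 1.97 and 2.41, and blmp-1, hbl-1 and lin-28 lie below it in both lists.

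Set among all protein-coding genes by the strongest peak in the window, the 10 genes ranged over more than a factor of 10. In the series ranked list 0.836% of genes had a peak at least as strong as that of lin-42, 1.12% for myrf-1 and 1.74% for daf-12. The shares were 2.79% for lin-14, 3.07% for lin-29, 6.03% for lin-41 and 6.96% for lin-46, then 9.72% for blmp-1, 10% for hbl-1 and 13.4% for lin-28. Against genes of the same length class these shares were larger for 9 genes, as with 2.51% for lin-42 and 16.4% for hbl-1, and smaller for lin-46 (4.75%). For lin-42 the replicates lay close, with 0.891% in replicate 1 and 0.766% in replicate 2. They lay apart for myrf-1 (4.71% and 0.631%), lin-41 (4.05% and 16.5%), lin-28 (43.5% and 9.35%) and most of all hbl-1 (76.2% and 8.36%). For lin-42, myrf-1 and lin-41 both replicates' peaks overlapped the same series peak. For hbl-1 different peaks are compared, 37 bp downstream of a 5′ end in replicate 1 and 1727 bp upstream in replicate 2. The same holds for lin-28 (423 bp upstream and 13 bp downstream), lin-14 and blmp-1, so these gaps do not concern 1 site. The ranges over the 2 replicates overlap between all neighbours in this order.

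**Figure D4:**
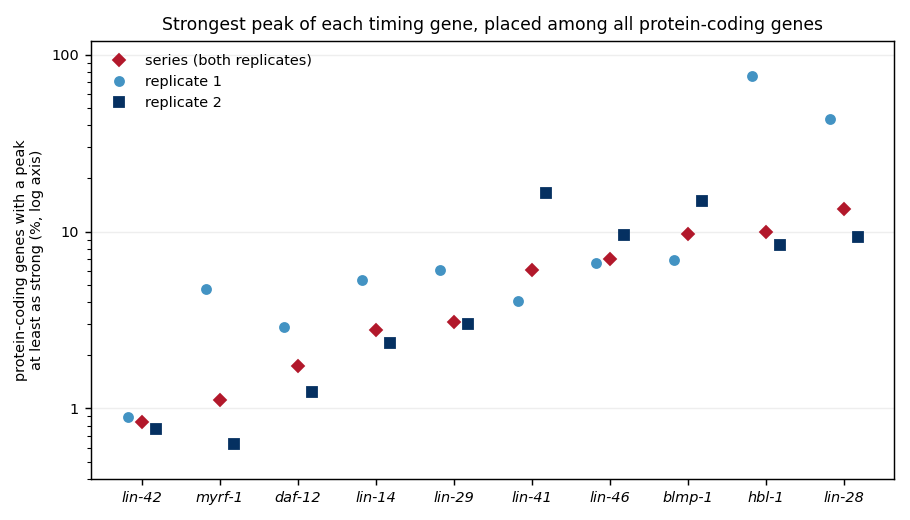
Share of protein-coding genes whose strongest peak in the window is at least as strong (vertical axis, %, log scale) for each timing gene (horizontal axis), in the series ranked list (red diamonds), replicate 1 (light circles) and replicate 2 (dark squares). The points of lin-42 lie together below 1%, and those of hbl-1 lie farthest apart, at 76.2% in replicate 1 and 8.36% in replicate 2. For hbl-1, lin-28, lin-14 and blmp-1 the strongest peak is a different one in each replicate.

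Over the peaks rather than the genes, 5 of the 10 conservative timing gene peaks overlapped a thresholded peak of at least 1 replicate, against 53.2% of all 1145 conservative peaks. Both entries at daf-12 count here through the same peak of replicate 2. In both replicates 1 of the 10 was found, against 26.3% of all. Replicate 1 thresholded 1 of the 10 and replicate 2 thresholded 5.

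Other genes of the timing network were examined in the same way. Of 36 further protein-coding genes, listed with earlier results known, 8 held a conservative summit, against the same 5.31% of all. The strongest was at nhl-2, a TRIM-NHL cofactor of microRNA silencing (chrIII:4899820-4900044), with a signal value of 467.6, rank 4, in both replicates (211.7 and 254.2). Its summit lay 841 bp upstream of nhl-2 but 582 bp from the 5′ end of tag-340, and inside the noncoding RNA gene F26F4.14. A peak 287 bp upstream of puf-9, a Pumilio-type RNA-binding gene that acts with let-7 on hbl-1, had 294.8, rank 29 (109.8 in replicate 1 and 185.8 in replicate 2). The puf-9 summit lay inside the noncoding RNA genes W06B11.7 and W06B11.9. A peak 963 bp upstream of ain-1, whose product joins the microRNA silencing complex, had 187.7, rank 108 (85.6 and 90.7). These 3 peaks were thresholded in both replicates and ranked above the strongest peak of lin-42.

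The gene din-1, which encodes a corepressor of DAF-12, held 4 conservative entries with signal values of 21.0 to 110.0, the strongest 725 bp upstream. The summit of the strongest lay inside the noncoding RNA gene ZK20.8. The weakest entries (55.3 and 21.0) overlap, so the 4 entries are not 4 separate regions. The summit of the entry with 55.3 lay inside the small nucleolar RNA gene F07A11.15. The remaining 4 of the 8 genes were ceh-60 (115.8), kin-20, the relative of a clock kinase (88.7), sea-2 (89.0 and 86.1) and nhr-8, a receptor related to DAF-12 (79.1). For ceh-60 the summit lay in a coding exon, nearest to the 5′ end of ets-4. For kin-20 it lay in an intron and inside the noncoding RNA gene F46F2.12. The non-conservative list added lin-66 (71.8) and alg-2 (55.3), an Argonaute gene, and made the count 10. Genes without a conservative summit include ain-2 and alg-1, which belong to the microRNA silencing machinery, and nhr-23, nhr-85, daf-9, dre-1, mab-10 and myrf-2.

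Of 6 noncoding timing genes, let-7 and mir-241 had a conservative summit in their window, and lin-4, mir-48, mir-84 and lep-5 had none, beside 6.51% of all annotated miRNA genes. That background covers only genes annotated as miRNA, whereas the 6 were listed as noncoding genes of any kind. The mir-241 peak lay 451 bp upstream (chrV:14366582-14366885, signal value 129.1, rank 267) and was thresholded in neither replicate. Its summit lay inside the noncoding RNA gene F56A12.8. The let-7 peak lay 1842 bp upstream of the annotated let-7 locus (chrX:14747011-14747314, 120.9, rank 314) and was thresholded in replicate 2 (75). The let-7 span used is that of the long primary transcript. This peak lies 140 bp from the 5′ end of C05G5.2, and to which gene it belongs was not tested. With no control library, SAEG-2 binding at these genes cannot be told apart from recovery of open or transcribed chromatin.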

How the data were processed

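Peaks were used as deposited by the authors, on ce11, per the file lists that accompany them. The series lists were made from both replicates' alignments. Each replicate also has lists of its own. Which aligner and caller made them is not stated. The deposited signal value ranks peaks within a list. The deposited score reaches at most 1000, and the deposited −log10 IDR at most 5. Of peaks with an IDR of 0.01 or lower, 58 are absent from the conservative list and 64 from the non-conservative list. No depth is given, so no count statistics were possible.

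Genes came from Ensembl release 115 (WBcel235), and let-7 was matched by the coordinates of its RefSeq entry. Counting was done in Python 3.11.15 and tested on simulated data. Members and lists were chosen with earlier results of these data known, so no test was made. All 10 members are named, as are the listed timing genes with a summit in either series list and the gene with the nearest 5′ end where it is another. Examples without a summit were chosen after their values were seen. The alternatives changed the list, the replicates, the window, the strength and the assignment.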

Additional observations from a re-analysis of the deposited data

How the results depend on the processing

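The count of 6 timing genes did not change with 1 kb or 5 kb upstream, with overlap of 1 bp in place of the summit, or with the peaks missing from the conservative list restored. It was 7 in the non-conservative list, and 4 among peaks at or above the median signal value of 96.9 and with the nearest coding 5′ end. Leaving out a replicate gave 1 to 4 timing genes, 478 to 522 protein-coding genes (1061 in the conservative list) and 4 to 6 of the 36 further genes (8 in the conservative list). These single lists are shorter, at 452 and 541 peaks. The protein-coding count was 1641 with 5 kb upstream and 585 at or above the median signal value, where the further genes numbered 5, since these settings widen the window or drop peaks. Of the 10 timing gene peaks, 5 were found in a replicate list, 4 where at least 50% of the peak had to be covered, and 1 to 5 with either replicate left out. Depth is unknown, so the power to detect weaker peaks could not be given.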

Other observations

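GC content varied among the timing gene peaks. Over 201 bp around the summit, GC content was 62.2% at the strongest daf-12 peak, 61.7% at the strongest lin-42 peak and 59.2% at myrf-1. The median over all 1145 conservative peaks was 45.3% (lower quartile 40.3%, upper quartile 50.7%). The lin-29 peak in the 3′ UTR was lowest among the timing genes, at 39.3%, and the lin-46 peak stood at 44.8%. The nearest tRNA gene to a conservative peak of the timing genes was 29337 bp away, at daf-12. What GC content does to the recovery of fragments was not tested.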
